A study of Homo sapiens with 6 samples.

Results

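The transcripts described here are those of 10 genes, out of 60569 gene names in the deposited table: the 4 ERBB receptors EGFR, ERBB2, ERBB3 and ERBB4, the 4 FGF receptors FGFR1, FGFR2, FGFR3 and FGFR4, the adaptor GRB7 and the EGFR-family inhibitor ERRFI1. They were taken by symbol, and each symbol had 1 row. The 6 RNA-seq libraries all come from MDA-MB-453, a human line established from breast cancer. Cells of 3 libraries carried a control vector and cells of the other 3 a construct for overexpressing ZNF207, a microtubule-binding zinc finger protein and partner of the spindle checkpoint protein BUB3. Both groups were transfected, and the design text calls the 3 libraries of a group independent biological replicates. The sources used here do not give the construct's promoter, the time after transfection or the share of cells that took it up.

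ERBB receptors bind ligands of the EGF and neuregulin families and signal as pairs. ERBB2 has no known ligand and is the preferred partner of the others, while ERBB3 has a weakly active kinase and signals mainly through its partners, above all to PI3-kinase. FGF receptors bind fibroblast growth factors together with heparan sulphate or klotho co-receptors and signal through the docking protein FRS2. MDA-MB-453 is commonly described as a luminal apocrine line and is known for an activating mutation of FGFR4. The values here are transcript levels and say nothing of alleles, protein or receptor activity.

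Levels are FPKM, fragments per kilobase of transcript scaled to the mapped fragments of the library, so that genes can be compared per length. Changes are differences of log2(FPKM + 1), overexpression minus control, from limma, with Benjamini-Hochberg adjustment over 13185 tested genes and a threshold of 0.05. Their 95% confidence intervals are not adjusted for the number of genes. All 10 genes passed the filter on low values (3 libraries or more at an FPKM of 1 or above), FGFR2 in 1 control and 2 overexpression libraries. Read depth is unknown, and FPKM summed to 589550 to 612875 per library. The construct was visible in ZNF207 itself, at 66.6 ± 2.78 FPKM with control vector and 807 ± 69.9 FPKM with the construct (mean ± SD, here and below, n = 3 per group). Its log2 change was 3.58 (limma adjusted p = 4.03e-09).

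The luminal identity of the line was visible: all 11 luminal apocrine markers were tested, led by the keratin KRT8 at 3013.5 ± 45.8 FPKM in controls. The summed level of these 11 markers was 7575 to 7915 FPKM in controls and 7275 to 7319 FPKM under overexpression. Most of it came from the keratins KRT8, KRT18 and KRT19, whose means were lower under overexpression, while those of FOXA1, SPDEF and XBP1 were higher. Over the 11 markers 5 estimates were above 0 and 6 below, with a median log2 change of -0.01. The part of this sum in the results was not tested. Of 9 basal and mesenchymal markers 3 were tested, with summed levels of 10.3 to 10.8 and 8.66 to 9.80 FPKM. The highest was the basal keratin KRT17 at 4.60 to 6.99 FPKM, followed by FN1 (fibronectin) at 1.67 to 3.26 FPKM. The basal markers KRT5 and TP63 reached at most 0.122 and 0.230 FPKM. Of 9 markers of blood, endothelial, stromal and glial cells 2 were tested, with sums of 29.9 to 31.3 and 26.8 to 31.3 FPKM. The 2 tested genes made up most of those sums, the smooth muscle actin ACTA2 at 17.3 to 20.5 FPKM and the collagen COL1A1 at 7.98 to 11.3 FPKM. The leukocyte gene PTPRC reached at most 0.0531 FPKM, and was listed at 0 in the controls.

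Related receptors can share sequence, so their transcripts were searched for stretches that a read could not tell apart. In GENCODE v29, 0% of the 50-base windows of the longest-coding ERBB3, ERBB4, FGFR2, FGFR3, FGFR4, GRB7 and ERRFI1 transcripts occurred in a transcript of another gene. The share was 1.41% for EGFR, whose windows recurred in the antisense gene EGFR-AS1 (mean 0.008 FPKM), and 0.430% for FGFR1. It was 2.62% for ERBB2. Genes that held windows of some ERBB2 transcript included MIEN1 and PGAP3, which overlap it on the opposite strand, and whether counting used strand is not stated. Between pairs within the ERBB receptors, and pairs among FGFR2, FGFR3 and FGFR4, the longest identical coding run was 31 bases. Pairs with FGFR1 and pairs of an ERBB with an FGF receptor were not compared in this way. The runs of 3 pairs are printed, 1 within the FGF receptors and 2 involving ERBB2, to show how short the stretches are (5′ to 3′ on the coding strand, lower case throughout). The FGFR3 and FGFR4 run starts at coding base 1853 of FGFR3 and 1832 of FGFR4, in the part that encodes the kinase domain.
FGFR3 and FGFR4, 31 bases: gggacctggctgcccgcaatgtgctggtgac
ERBB2 and ERBB4, 25 bases: tcatggtcaaatgttggatgattga
EGFR and ERBB2, 23 bases: gatgtctacatgatcatggtcaa

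In controls the receptors differed widely in level, with overlap between some neighbours, and none of the 10 genes passed the test when ZNF207 was overexpressed. ERBB2 (66.0 FPKM), ERBB3 (55.1 FPKM) and FGFR4 (52.2 FPKM) were the most abundant. EGFR (3.998 FPKM) and FGFR2 (0.952 FPKM) were the least. By limma 0 of 10 rose and 0 fell, against 0.212% of all tested genes called. In a simulation the same procedure found 6% of genes with a true log2 change of 0.25 and 42% at 0.5. A gene without a call, here and below, is therefore not shown to be unchanged. At an unadjusted p under 0.05, 1 was higher (FGFR4) and 1 lower (EGFR). Of all tested genes 12.1% reached that level, 5.08% higher and 7.03% lower. The same 2 genes had no overlap between groups, as had 18.0% of all tested genes (7.61% higher and 10.4% lower). A count of 2 of 10 is near that background. The median log2 change was 0.04 for the 10 genes and -0.01 for all tested genes, with 7 estimates above 0 and 3 below. The 28 calls over all genes were 33, 10 and 15 without control replicates 1, 2 and 3, and 12, 17 and 7 without overexpression replicates 1, 2 and 3. None of the 10 genes was called in any of these.

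**Figure D1:**
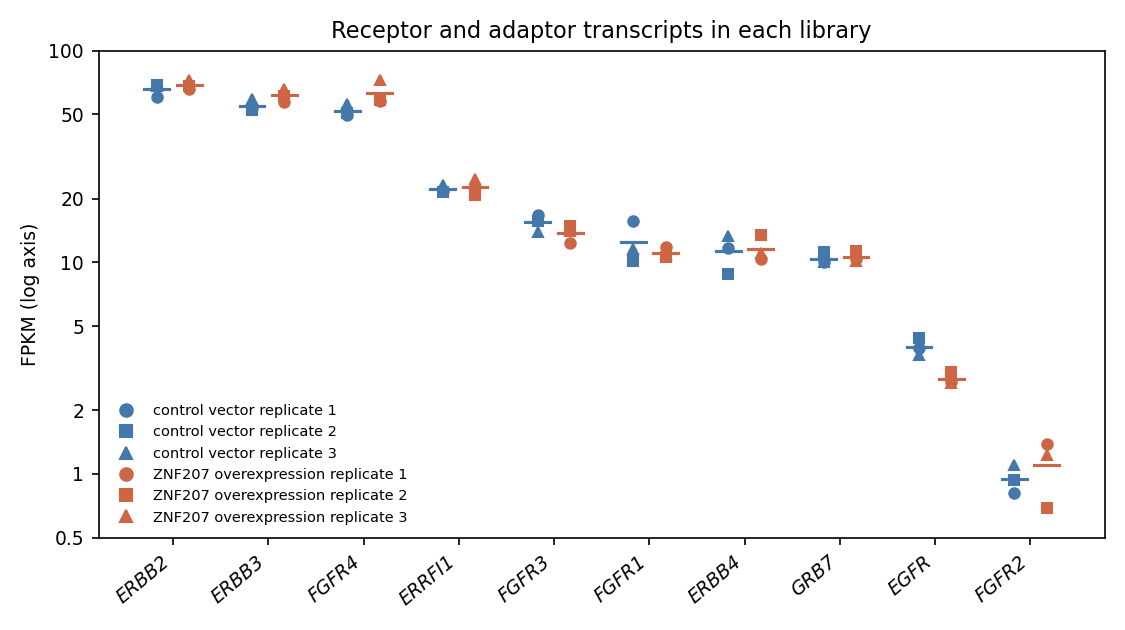
FPKM (log axis) of the 10 genes in each of the 6 libraries, ordered by control mean. Circles, squares and triangles are replicates 1, 2 and 3, blue for control vector and orange for ZNF207 overexpression, and horizontal lines are group means. ERBB2, ERBB3 and FGFR4 lie between 49.5 and 72.5 FPKM in every library, and only EGFR and FGFR4 have groups that do not overlap.

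ERBB2 (chromosome 17, 39687914 to 39730426, plus strand, GRCh38, GENCODE v29), the receptor amplified in HER2-positive breast cancer, stood at 60.6, 68.9 and 68.4 FPKM in the controls. In the overexpression libraries it stood at 65.9, 68.2 and 72.5 FPKM. The groups overlapped, with the lowest value in control replicate 1 and the highest in overexpression replicate 3. Its change on the log2 scale was 0.06 (SE 0.07, interval -0.09 to 0.21, adjusted p = 0.76).

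ERBB3 (chromosome 12, 56076799 to 56103505, plus strand), the main PI3-kinase-recruiting partner of ERBB2, stood at 53.4, 52.6 and 59.3 FPKM in controls. It stood at 57.5, 61.0 and 65.9 FPKM under overexpression. Control replicate 3 lay above overexpression replicate 1, so the groups overlapped. The log2 change was 0.16 (SE 0.07, interval -0.0027 to 0.31, adjusted p = 0.418). ERBB2 exceeded ERBB3 in all 6 libraries, by a ratio of 1.10 to 1.31, although their ranges overlapped.

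ERBB4 (chromosome 2, 211375717 to 212538841, minus strand), a neuregulin receptor with an active kinase, varied most among the ERBB receptors between control libraries. It stood at 11.7, 8.84 and 13.3 FPKM in controls and at 10.3, 13.5 and 11.0 FPKM under overexpression. Each group held both high and low values, with a log2 change of 0.05 (SE 0.14, interval -0.28 to 0.37, adjusted p = 0.93).

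EGFR (chromosome 7, 55019021 to 55211628, plus strand), the receptor for EGF, TGF-alpha, amphiregulin and other ligands, was the least abundant ERBB receptor. It stood at 3.95, 4.396 and 3.65 FPKM in controls and at 2.72, 3.02 and 2.70 FPKM under overexpression. Every overexpression library lay below every control, with means of 3.998 ± 0.375 and 2.81 ± 0.182 FPKM. The log2 change was -0.39 (SE 0.12, interval -0.65 to -0.13). The unadjusted p was 0.00816, and the limma adjusted p of 0.228 did not pass the threshold. An exact two-sided permutation test gave p = 0.1, its minimum with 3 libraries a group. Over 15 alternative settings the log2 change of EGFR stayed between -0.49 and -0.33, with adjusted p from 0.154 to 0.565.

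**Figure D2:**
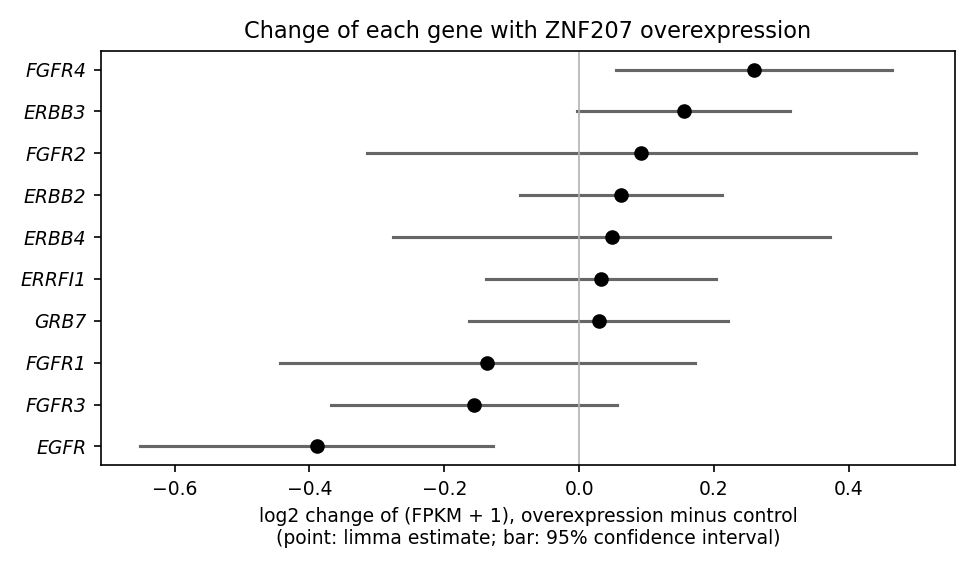
log2 change of (FPKM + 1), overexpression minus control, for each of the 10 genes. Points are limma estimates and bars their 95% confidence intervals, not adjusted for the number of genes. The interval of EGFR runs from -0.65 to -0.13 and that of FGFR4 from 0.06 to 0.46, while the other 8 include 0.

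Among the FGF receptors FGFR4 dominated. FGFR4 (chromosome 5, 177086886 to 177098144, plus strand), the receptor for FGF19 with the co-receptor KLB, stood at 49.5, 50.9 and 56.1 FPKM in controls. In overexpression libraries it stood at 57.8, 58.5 and 72.5 FPKM. All 3 lay above the controls, replicate 3 well above the rest, with means of 52.2 ± 3.50 and 62.9 ± 8.30 FPKM. The log2 change was 0.26 (SE 0.09, interval 0.06 to 0.46). Its unadjusted p was 0.0182, its limma adjusted p 0.293 and its exact permutation p 0.1. Without overexpression replicate 3 the log2 change was 0.16 (adjusted p = 0.579).

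FGFR3 (chromosome 4, 1793293 to 1808872, plus strand), a receptor altered in bladder cancer and dwarfism, stood at 16.7, 15.7 and 14.0 FPKM in controls and at 12.4, 14.9 and 14.0 FPKM under overexpression. The groups overlapped, with the 2 highest values among controls. The log2 change was -0.16 (SE 0.09, interval -0.37 to 0.06, adjusted p = 0.555). FGFR1 (chromosome 8, 38400215 to 38468834, minus strand), the receptor amplified in part of luminal breast cancers, stood at 15.7, 10.1 and 11.6 FPKM in controls. It stood at 11.8, 10.6 and 10.9 FPKM under overexpression. Control replicate 1 alone stood apart, and the log2 change of -0.14 (SE 0.14, interval -0.44 to 0.17, adjusted p = 0.739) was 0.03 without it. FGFR2 (chromosome 10, 121478334 to 121598458, minus strand), a receptor linked to breast cancer risk, was close to the filter. It stood at 0.814, 0.941 and 1.10 FPKM in controls and at 1.38, 0.690 and 1.23 FPKM under overexpression. Overexpression libraries held both the highest and the lowest value (log2 change 0.09, SE 0.18, interval -0.32 to 0.50, adjusted p = 0.882).

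The adaptor and the inhibitor varied least between control libraries, by 6.46% and 3.87% of their means. GRB7 (chromosome 17, 39737927 to 39747291, plus strand), an SH2 adaptor encoded beside ERBB2 and often amplified with it, stood at 10.01, 11.2 and 10.03 FPKM in controls. It stood at 10.4, 11.4 and 10.2 FPKM under overexpression. The groups overlapped throughout (log2 change 0.03, SE 0.09, interval -0.16 to 0.22, adjusted p = 0.93). ERRFI1 (chromosome 1, 8004404 to 8026308, minus strand), also called MIG6, binds and inhibits the kinases of EGFR and its relatives. It stood at 21.8, 21.5 and 23.1 FPKM in controls and at 22.6, 20.9 and 24.6 FPKM under overexpression. The overexpression values enclosed the control values (log2 change 0.03, SE 0.08, interval -0.14 to 0.20, adjusted p = 0.905).

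Ordered by mean level over the 6 libraries, the genes ran ERBB2, ERBB3, FGFR4, ERRFI1, FGFR3, FGFR1, ERBB4, GRB7, EGFR and FGFR2. The ranges over the 6 libraries were apart between FGFR4 and ERRFI1, ERRFI1 and FGFR3, GRB7 and EGFR, and EGFR and FGFR2. ERBB3 exceeded FGFR4 in 4 of 6 libraries, in all 3 controls and in 1 overexpression library. FGFR3 exceeded FGFR1 in 6 of 6 libraries, by a ratio of at least 1.05. FGFR1 exceeded ERBB4 in 3 of 6 and ERBB4 exceeded GRB7 in 4 of 6, so that these neighbours did not differ beyond their spread.

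The makeup of each receptor family was then compared, as a gene's share of the family's summed FPKM. ERBB2 held 46.8%, 51.1% and 47.3% of the ERBB receptor FPKM in controls and 48.3%, 46.8% and 47.7% in overexpression libraries. The difference of -0.820 percentage points was within the spread of the controls (exact permutation p = 0.9), and it was 0.554 without control replicate 2. ERBB3 held 41.1%, 39.0% and 41.0% in controls and 42.2%, 41.9% and 43.3% in overexpression libraries. These groups did not overlap, with a difference of 2.05 points (exact permutation p = 0.1, the smallest possible), and 1.37 points without control replicate 2.

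FGFR4 held 59.8%, 65.55% and 67.8% of the FGF receptor FPKM in controls and 69.4%, 69.1% and 73.5% in overexpression libraries. The groups did not overlap, with a difference of 6.24 points (exact permutation p = 0.1), which was 3.94 points without control replicate 1. That library held the highest FGFR1 share, 19.0% against 13.0% and 14.0% in the other controls. Summed over the family, FGF receptors came to 77.6 to 82.7 FPKM in controls and 83.3 to 98.6 FPKM under overexpression. Within that sum FGFR4 and FGFR2 had higher means under overexpression, and FGFR1 and FGFR3 lower means. ERBB receptors came to 129.7 to 144.7 and 136.5 to 152.1 FPKM. The ratio of FGFR4 to ERBB2 was 0.739 to 0.820 in controls and 0.857 to 1.00 in overexpression libraries.

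**Figure D3:**
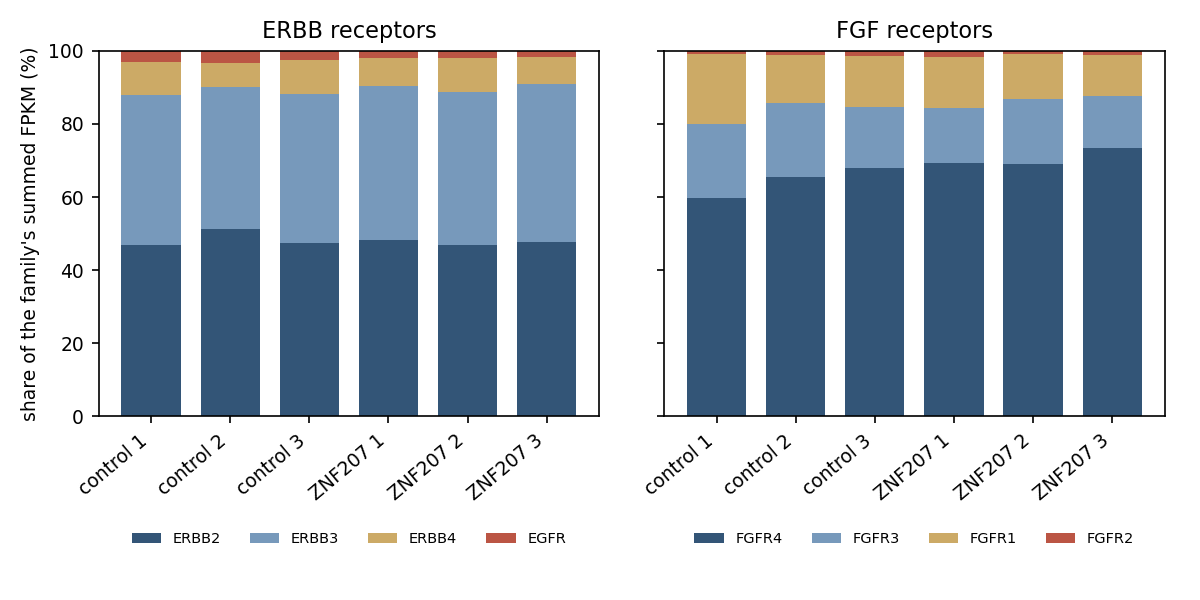
Share (%) of the summed FPKM of the ERBB receptors (left) and FGF receptors (right) held by each receptor, 1 bar per library. ERBB2 and ERBB3 together fill most of the left bars, and FGFR4 fills 59.8% to 67.8% of the control bars and 69.1% to 73.5% of the overexpression bars on the right.

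The ligands of the ERBB receptors were present mainly as AREG, BTC and TGFA. Of 11 ligand genes 6 were tested, and by limma 0 rose and 0 fell. At an unadjusted p under 0.05, BTC and TGFA were higher and AREG lower, beside 12.1% of all tested genes in either direction. Those 3 of 6 also had no overlap between groups, beside 18.0% of all tested genes. The list's median log2 change was 0.27, against -0.01 for all tested genes, with 4 estimates above 0 and 2 below. Among those above 0, EGF and EPGN had control means of 1.00 and 0.951 FPKM, near the filter. The summed level of the 11 ligand genes was not higher, at 33.8 to 41.6 FPKM in controls and 33.2 to 35.4 FPKM under overexpression. AREG (amphiregulin, an EGFR ligand) stood at 26.0, 17.5 and 16.7 FPKM in controls and at 13.8, 12.9 and 11.9 FPKM under overexpression. The groups did not overlap, with control replicate 1 far above the rest. The log2 change was -0.58 (SE 0.15, interval -0.90 to -0.25, adjusted p = 0.153), and it was -0.38 without that library.

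The other tested ligands are named after their values were seen. BTC (betacellulin, a ligand of EGFR and ERBB4) stood at 6.25, 5.03 and 5.69 FPKM in controls and at 8.37, 7.56 and 7.57 FPKM under overexpression. Every overexpression value was above every control value (log2 change 0.41, SE 0.10, interval 0.18 to 0.64, adjusted p = 0.147). TGFA (TGF-alpha, an EGFR ligand) stood at 6.07, 6.67 and 6.39 FPKM in controls and at 7.77, 7.97 and 7.84 FPKM under overexpression. Again the groups did not overlap (log2 change 0.26, SE 0.09, interval 0.07 to 0.46, adjusted p = 0.26). EGF, EPGN (epigen) and HBEGF lay at 0.710 to 2.58 FPKM in every library, with overlapping groups and adjusted p of 0.447, 0.682 and 0.95. Their log2 changes were 0.43, 0.27 and -0.04. EGF and EPGN were highest in overexpression replicate 3, at 2.58 and 2.17 FPKM. With 1 library left out, their changes were as low as 0.22 and 0.05. The neuregulins NRG1 to NRG4, which bind ERBB3 and ERBB4, and the ligand EREG did not pass the filter. NRG3 was the highest of these, at 0.647 to 0.897 FPKM, and NRG1 reached at most 0.174 FPKM.

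**Figure D4:**
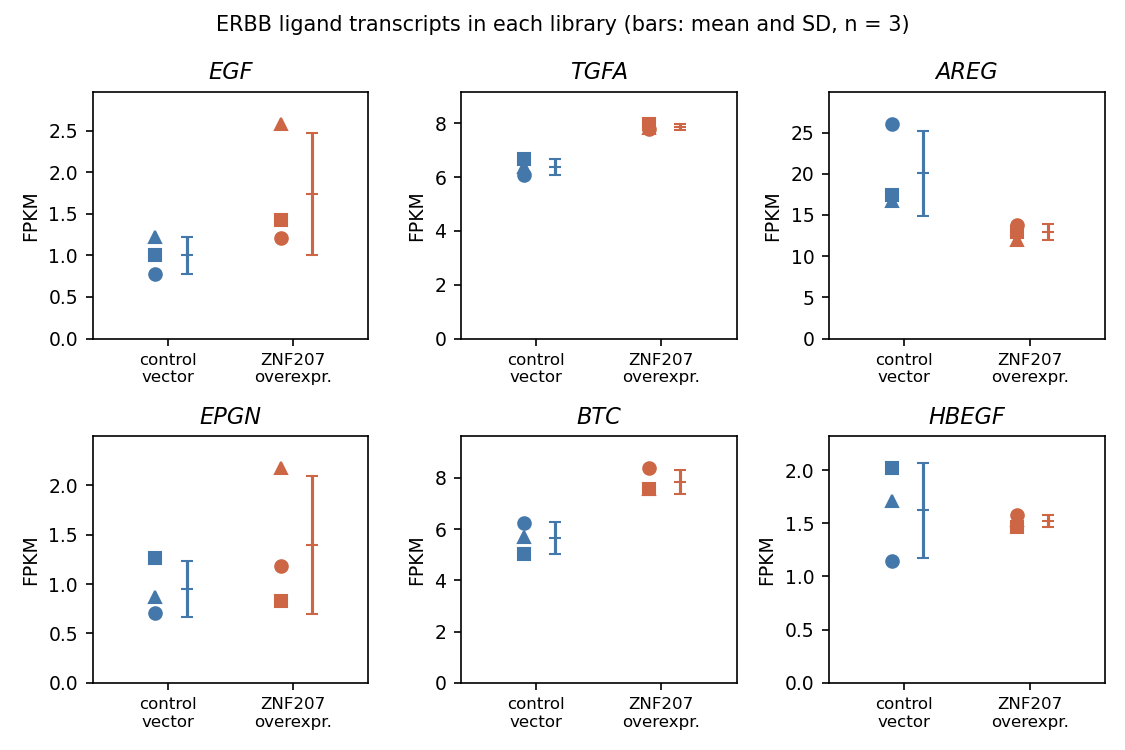
FPKM of the 6 tested ERBB ligand genes in each library, circles, squares and triangles for replicates 1, 2 and 3, with mean and SD (n = 3) beside them. AREG runs from 16.7 to 26.0 FPKM in controls and 11.9 to 13.8 FPKM with overexpression, while BTC and TGFA lie higher in all 3 overexpression libraries.

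Of 22 FGF ligand genes 3 were tested, FGF11, FGF12 and FGF13, and 10 were listed at 0 in all 6 libraries, FGF19 and FGF2 among them. The 3 tested genes belong to the subfamily of FGF homologous factors, which act inside cells on sodium channels and are not classical receptor ligands. By limma 0 of 3 rose or fell, and 0 had an unadjusted p under 0.05, beside 12.1% of all tested genes. FGF12 was the highest, at 14.3, 10.3 and 19.9 FPKM in controls and 14.7, 14.9 and 25.3 FPKM under overexpression (log2 change 0.28, SE 0.24, adjusted p = 0.685; 0.06 without control replicate 2 and 0.04 without overexpression replicate 3). Its groups overlapped, and replicate 3 was the highest library of each. The FGF19 co-receptor KLB lay at 0.0985 to 0.261 FPKM and klotho (KL) at no more than 0.032 FPKM.

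Of 8 genes for FGF co-receptors and binding proteins, KL and KLB among them, 4 were tested and 0 rose or fell (limma, median log2 change 0.03). SDC4, a heparan sulphate proteoglycan, was the highest at 116 ± 0.943 and 118 ± 1.96 FPKM (adjusted p = 0.842). GPC1, a glypican that carries heparan sulphate, was the 1 gene at an unadjusted p under 0.05, beside 12.1% of all tested genes. It stood at 5.27, 6.21 and 6.22 FPKM in controls and at 4.35, 4.59 and 4.64 FPKM under overexpression, without overlap (log2 change -0.32, SE 0.10, adjusted p = 0.258). SDC4 had no overlap between groups either, which made 2 of 4, beside 18.0% of all tested genes.

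Of 24 genes for adaptors and docking proteins that bind activated receptors 21 were tested, and by limma 0 rose and 0 fell, with a median log2 change of -0.01. At an unadjusted p under 0.05, 0 were higher and 3 of 21 lower (CRKL, PLCG1 and FRS3), a share near the 12.1% of all tested genes. No overlap between groups was seen for 6 of 21, beside 18.0% of all tested genes. PLCG1, a phospholipase recruited by EGFR and FGF receptors, was the most abundant at 94.2, 109 and 93.8 FPKM in controls and 88.5, 86.1 and 83.9 FPKM under overexpression. All overexpression values were below the controls (log2 change -0.20, SE 0.07, adjusted p = 0.285). FRS3, a docking protein of FGF receptors, had the largest change, with means of 3.05 ± 0.171 and 2.32 ± 0.156 FPKM (log2 change -0.29, SE 0.12, adjusted p = 0.378). CRKL, an adaptor named after its value was seen, stood at 59.4 ± 0.349 and 53.2 ± 0.105 FPKM (log2 change -0.15, SE 0.05, adjusted p = 0.246).

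All 26 genes for receptor ubiquitination, trafficking and inhibition were tested, and by limma 0 rose and 0 fell (median log2 change -0.02). At an unadjusted p under 0.05, 0 were higher and 2 of 26 lower (CBLB and RNF41), a share below the 12.1% of all tested genes. No overlap between groups was seen for 4 of 26, beside 18.0% of all tested genes. CBLB, a ubiquitin ligase for activated receptors, stood at 5.71 ± 0.589 and 4.34 ± 0.683 FPKM (log2 change -0.33, SE 0.12, adjusted p = 0.324). RNF41, also called NRDP1, a ubiquitin ligase that lowers ERBB3 and is named after its value was seen, stood at 29.5, 32.4 and 31.0 FPKM in controls. It stood at 26.1, 27.0 and 27.7 FPKM under overexpression, all below the controls (log2 change -0.19, SE 0.06, adjusted p = 0.258). USP8, a deubiquitinase of sorted receptors, was the most abundant at 282 ± 5.83 and 305 ± 14.1 FPKM (adjusted p = 0.43).

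Of 8 genes for ligand sheddases and receptor chaperones all were tested and 0 rose or fell (limma). At an unadjusted p under 0.05 there were 0, beside 12.1% of all tested genes. No overlap between groups was seen for 3 of 8, HSP90AA1 among them, beside 18.0% of all tested genes. HSP90AB1, a chaperone on which ERBB2 depends, was the most abundant at 754 ± 22.3 and 765 ± 6.69 FPKM (adjusted p = 0.901). Its relative HSP90AA1 had the largest change, 0.11 on the log2 scale (687 ± 28.6 and 742 ± 31.4 FPKM, adjusted p = 0.475).

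Genes around ERBB2 and GRB7 on chromosome 17 were examined because the region is amplified as a block in some breast cancers. Of 25 neighbours 17 were tested, and by limma 0 rose and 0 fell, with a median log2 change of -0.05. At an unadjusted p under 0.05 there were 0, beside 12.1% of all tested genes. Groups overlapped for all 17, while 18.0% of all tested genes had no overlap. In controls ERBB2 stood at 66.0 ± 4.65 FPKM, above its nearest tested neighbours STARD3 (28.5 ± 2.04), MIEN1 (18.3 ± 1.08), GRB7 (10.4 ± 0.672) and PGAP3 (5.05 ± 0.313 FPKM). STARD3, MIEN1 and PGAP3 were chosen after their values were seen. ERBB2 exceeded GRB7 6.05-fold to 6.82-fold in controls and 6.00-fold to 7.11-fold in overexpression libraries. RARA, a retinoic acid receptor at the far end of the list, was its most abundant gene at 53.3 ± 0.852 and 51.8 ± 2.26 FPKM (adjusted p = 0.815). RAPGEFL1 had the largest change, -0.22 (3.57 ± 0.589 and 2.93 ± 0.502 FPKM, adjusted p = 0.601).

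Other receptor tyrosine kinases gave no call either: of 40 genes 17 were tested, 0 rose and 0 fell by limma, and the median log2 change was -0.03. The collagen receptor DDR1 was the most abundant at 395 ± 26.3 and 370 ± 19.0 FPKM (adjusted p = 0.612), above every ERBB and FGF receptor in all 6 libraries. At an unadjusted p under 0.05, RET was higher and EPHA4 lower, and 2 of 17 is near the 12.1% of all tested genes. No overlap between groups was seen for 5 of 17, beside 18.0% of all tested genes. EPHA4, an ephrin receptor, stood at 3.92 ± 0.513 and 2.76 ± 0.197 FPKM (log2 change -0.38, SE 0.12, adjusted p = 0.251). RET, a GDNF-family receptor named after its value was seen, stood at 9.93 ± 1.39 and 12.4 ± 0.466 FPKM (log2 change 0.30, SE 0.10, adjusted p = 0.271).

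Among genes known to respond to receptor signalling through ERK none passed the test. Of 19 genes 11 were tested, with a median log2 change of -0.15. All but 1 of the estimates (10) were below 0, as were 6911 of the 13185 estimates over all tested genes. Those of SPRED2 (-0.03), EGR1 (-0.01) and PHLDA1 lay near 0. Among the genes below the filter, DUSP6, SPRY4 and SPRED1 had higher means under overexpression. Means of SPRED3, ETV4, FOSL1 and IL17RD were lower, and ETV1 was listed at 0. By limma 0 of 11 rose and 0 fell. The unadjusted p was under 0.05 for 1 gene that was higher and 3 that were lower (all tested genes, 5.08% and 7.03%). No overlap between groups was seen for 4 of 11, beside 18.0% of all tested genes. SPRY1, a feedback inhibitor of FGF and EGF signalling, stood at 19.3, 24.7 and 19.965 FPKM in controls and at 15.1, 17.2 and 12.9 FPKM under overexpression. The groups did not overlap (log2 change -0.47, SE 0.12, adjusted p = 0.147). CCND1, cyclin D1, was the most abundant at 472 ± 15.3 and 422 ± 16.4 FPKM (log2 change -0.16, adjusted p = 0.258). The third lower gene was IER3 (79.4 ± 5.98 and 64.7 ± 3.62 FPKM, adjusted p = 0.13) and the higher one the ERK phosphatase DUSP5 (11.2 ± 0.878 and 14.9 ± 0.866 FPKM, adjusted p = 0.111), both named after their values were seen. In the luminal marker list TFF3, a trefoil factor, had the largest change, 31.7 ± 4.61 against 20.3 ± 2.06 FPKM (log2 change -0.61, adjusted p = 0.0618). It passed with the filter at an FPKM of 5 (adjusted p = 0.0318).

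**Figure D5:**
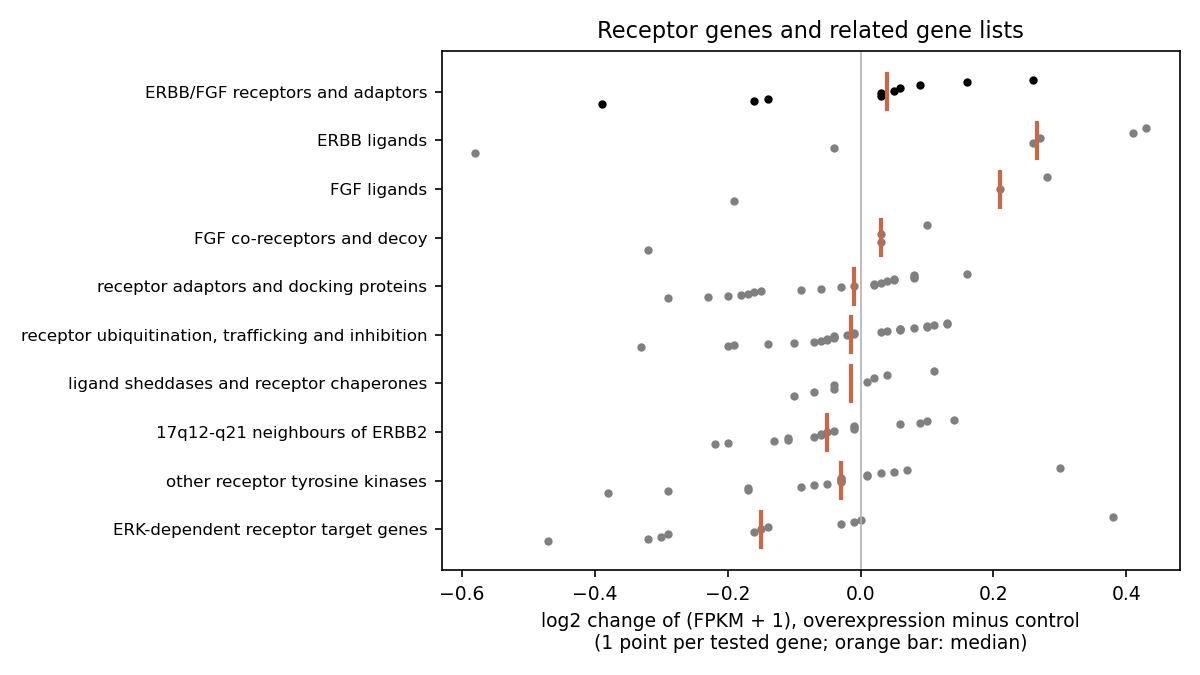
log2 change of (FPKM + 1), overexpression minus control, of every tested gene in the receptor set (black) and in 9 related lists (grey), with list medians as orange bars. The receptor set spans -0.39 to 0.26 around a median of 0.04, and the ERK-dependent genes have a median of -0.15.

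Finally, the tested genes whose profile over the 6 libraries lay nearest to that of 3 receptors were found, as the root mean square difference of mean-centred log2(FPKM + 1) values among 9788 genes with a mean FPKM of at least 5. For ERBB2 they were HINT3, CRCP and KEAP1, each at a difference of 0.013, where ERBB2 itself deviated by 0.077 from its mean. For ERBB3 they were TRIM37 at 0.014 and SNX18 and RABGGTA at 0.016, beside its own deviation of 0.110. For FGFR4 they were ANXA6 and FBXO6 at 0.030 and SDCBP at 0.031, beside its own deviation of 0.175. The median difference over all genes was 0.113 for ERBB2, 0.133 for ERBB3 and 0.187 for FGFR4. Picked as the nearest of 9788 genes over only 6 libraries, the named genes lie below these medians by selection. Whether they share any control with the receptors was not tested.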

How the data were processed

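RNA sequencing values of 6 libraries (3 control vector, 3 ZNF207 overexpression) were read from a table of FPKM values deposited by the authors, with 1 column per library. The submitters' processing notes list hg38, DESeq2 1.4.5, Bowtie2 and RSEM 1.3.1. What each did, and the annotation, strand and filters, is not given in the sources used here. Columns named NC and 207 were matched to the groups, and their last digit to the replicate number, by name. The table has 60658 rows, and for a repeated name the row of highest mean was used. FPKM carry no read numbers: among 1981 low genes at most 0.202% shared a ratio between 2 libraries, so whole reads could not be recovered and no counting interval is given. Identical values between 2 libraries occurred for at most 8 tested genes.

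Values were analysed as log2(FPKM + 1), a scale that understates changes of low genes, with limma 3.58.1 in R 4.3.3 (mean-variance trend, two-sided). The procedure was tested on simulated data, with 50 genes changed at each size. It recovered 6% of them at a true log2 change of 0.25, 42% at 0.5, 82% at 1 and 98% at 2. It made 6 false calls, and 0 calls when no gene was changed. Small changes would therefore mostly be missed. No other samples or columns were left out. Single values used exact permutation tests. Coordinates are from GENCODE v29 on GRCh38. The deposited table's locus often spans several genes and was not used for them. The alternatives were pseudocount, filter, scaling, variance model, library weights, a replicate block and each library left out.

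The members and gene lists were chosen with earlier results of these data known. Genes named are the 10 members, ZNF207, and in each list any called gene, the most abundant and the most changed tested gene, plus the nearest profiles of ERBB2, ERBB3 and FGFR4. All other genes named were chosen after their values were seen.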

Additional observations from a re-analysis of the deposited data

How the results depend on the processing

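None of the 10 receptor and adaptor genes was called under any of 16 alternatives, 6 of which left out 1 library, and their median log2 change stayed between 0.03 and 0.08. The number of called genes over the whole table, 28, was 4 without a filter, 64 with the filter at an FPKM of 5, 17 with median-of-ratios scaling and 5 without a variance trend. It ran from 7 to 33 when 1 library was left out. EGFR, FGFR2 and other genes below the stricter filter have no value with it. The libraries were not treated as paired, since the labels name nothing shared by equal replicate numbers. Deviations of same-numbered libraries correlated at 0.136, 0.009 and 0.175, and those of the 6 pairs with different numbers at -0.209 to 0.071. Control replicate 2 and overexpression replicate 2 each correlated best with another number, so a pairing of some libraries is neither shown nor excluded. With the replicate block 145 genes were called, 0 of the 10 among them, with 1 ERK-dependent gene (SPRY1, adjusted p = 0.0398) and 1 luminal marker (TFF3, adjusted p = 0.0125). The luminal list also had 1 call with the filter at an FPKM of 5. The cause of these differences was not tested. Estimates near 0 changed sign when a library was left out, with these ranges over the 6 omissions: ERBB4 -0.10 to 0.17 (below 0 without control replicate 2, and at -0.06 lacking overexpression replicate 2), FGFR1 -0.26 to 0.03, FGFR2 -0.01 to 0.24, GRB7 -0.02 to 0.08 and ERRFI1 -0.03 to 0.09. Among the other named genes HBEGF ran from -0.18 to 0.07, HSP90AB1 from 0.00 to 0.04, MIEN1 from -0.05 to 0.03, HINT3 from 0.00 to 0.10 and CRCP from -0.02 to 0.09. The basal marker KRT17 ran from -0.19 to 0.02. ACTA2, from the list of markers of other cells, ran from -0.07 to 0.05, above 0 in 3 omissions at 0.01, 0.04 and 0.05. With TPM scaling ACTA2 was 0.01 and MIEN1 0.00, with median-of-ratios scaling ACTA2 was 0.01, and with array weights MIEN1 was 0.00. The ERBB2 share difference ran from -1.64 to 0.554 points over the libraries left out, turning positive without control replicate 2. Read depth is unknown, and FGFR2, the neuregulins and most FGF genes lie at levels where FPKM give little precision.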
